A study of Mus musculus with 30 samples.

Results

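Matrix metalloproteinases (MMPs) and the tissue inhibitors of metalloproteinases (TIMPs) were followed as 7 proteases and 3 inhibitors, 10 genes in all, in mouse back skin inflamed with TPA (12-O-tetradecanoylphorbol-13-acetate). The genes were Mmp2, Mmp3, Mmp9, Mmp10, Mmp12, Mmp13, Mmp14, Timp1, Timp2 and Timp3, and every probe set annotated with 1 of these symbols was taken, which gave 10 of the 22121 gene symbols on the array and 22 of the 45037 probe sets that were not array controls. All 22 carried a single gene symbol and all 22 lay above the filter on dim probe sets, so none of the members was lost before testing. Mmp14 was read by 3 probe sets, Timp2 by 6, Timp3 by 4, Mmp2 and Mmp9 by 2 each and the other genes by 1. Where 1 value stands for a gene, it comes from its brightest probe set.

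The data came from 30 Affymetrix Mouse Genome 430 2.0 arrays, 3 for each of 10 groups. Wild type (WT) mice were set beside mice null for D6 (D6-deficient), a scavenging receptor that internalizes and degrades inflammatory CC chemokines. All mice were 129–C57BL/6 females, 8–12 weeks old, with shaved back skin. The skin received TPA at 50 µM in 3 applications 24 h apart and was taken whole on day 1, 2, 4 or 6 after them, whereas the day 0 groups of both genotypes received acetone, the solvent, and no TPA. A difference from day 0 therefore sets TPA against acetone at 1 time, and the same 3 acetone arrays of a genotype serve all its TPA days. The arrays were labeled as biological replicates, 1 mouse each in the methods. Values are robust multiarray average (RMA) intensities on the log2 scale. Rose, fell, higher and lower are written for an adjusted p under 0.05 in a linear model of all 30 arrays (limma, Benjamini-Hochberg over 36029 probe sets), and "passed" means the same. Because whole skin was ground, fewer cells of a type and less RNA per cell cannot be told apart.

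MMPs are secreted or membrane-bound zinc proteases that are made as inactive zymogens and cut collagens, laminins, elastin and many chemokines once activated. Their families are the collagenases (Mmp13), the stromelysins (Mmp3 and Mmp10), the macrophage elastase (Mmp12), the gelatinases (Mmp2 and Mmp9) and the membrane-type enzymes (Mmp14, an activator of pro-Mmp2). TIMPs are small secreted proteins that block the catalytic site, and Timp3 is held in the matrix and also inhibits ADAM proteases. In skin these enzymes are known for wound repair, leukocyte entry and remodeling of the basement membrane. TPA activates protein kinase C, and the AP-1 site, the heptamer that Fos and Jun dimers bind, was first defined as the TPA-responsive element of genes of this family.

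Mmp13, Mmp12, Mmp3 and Mmp10 are neighbors on mouse chromosome 9, in that order, within 238 kb from 7272514 to 7510242 (GRCm38.p6). Mmp9 is on chromosome 2, Mmp2 on 8, Mmp14 on 14, Timp1 on X, Timp2 on 11 and Timp3 on 10. RefSeq promoter windows of 300 bases, 250 before a transcription start and 50 from it on, were at hand for 8 of the 10 genes, with 9 starts because Mmp12 has 2. Mmp2 and Mmp9 had no entry in that table. The 100 bases before the start are shown for the chromosome 9 genes, which all rose on day 4 in both genotypes, and for Timp1, which also rose on that day. They run 5′ to 3′ on the plus strand of GRCm38.p6, and capitals mark the AP-1 heptamer TGAGTCA or its reverse complement TGACTCA.
Mmp13, chr9:7272414-7272513: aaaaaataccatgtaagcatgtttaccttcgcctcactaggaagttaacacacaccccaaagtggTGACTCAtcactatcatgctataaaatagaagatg
Mmp3, chr9:7445722-7445821: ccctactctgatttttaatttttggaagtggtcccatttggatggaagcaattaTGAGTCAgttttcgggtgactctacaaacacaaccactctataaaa
Mmp10, chr9:7502242-7502341: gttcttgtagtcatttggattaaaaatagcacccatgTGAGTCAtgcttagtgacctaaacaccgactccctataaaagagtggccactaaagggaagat
Mmp12, second start, chr9:7347274-7347373: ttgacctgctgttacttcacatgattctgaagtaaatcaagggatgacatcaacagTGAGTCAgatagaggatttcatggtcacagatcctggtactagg
Timp1, chrX:20870066-20870165: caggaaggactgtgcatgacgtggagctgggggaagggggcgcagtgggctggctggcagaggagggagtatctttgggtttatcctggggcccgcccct

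The heptamer was present once in the windows of Mmp13, Mmp3, Mmp10 and the second start of Mmp12, and its first base lay 35, 46, 63 and 44 bases before the respective start. Of all 32851 promoter windows of this length, 5.2% held it on either strand. The windows of Timp1, Timp2, Timp3, Mmp14 and the first start of Mmp12 did not hold these letters, which says nothing of other sequences or other positions. The TATA box letters TATAAA, searched on both strands, were found in the same 4 windows and in 13.6% of all windows. Their first base lay 16, 7 and 29 bases before the starts of Mmp13, Mmp3 and Mmp10. In Mmp12 they lay after the second start, outside the bases shown. Whether they act as a TATA box was not tested. The arrays do not tell the starts of Mmp12 apart.

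**Figure D1:**
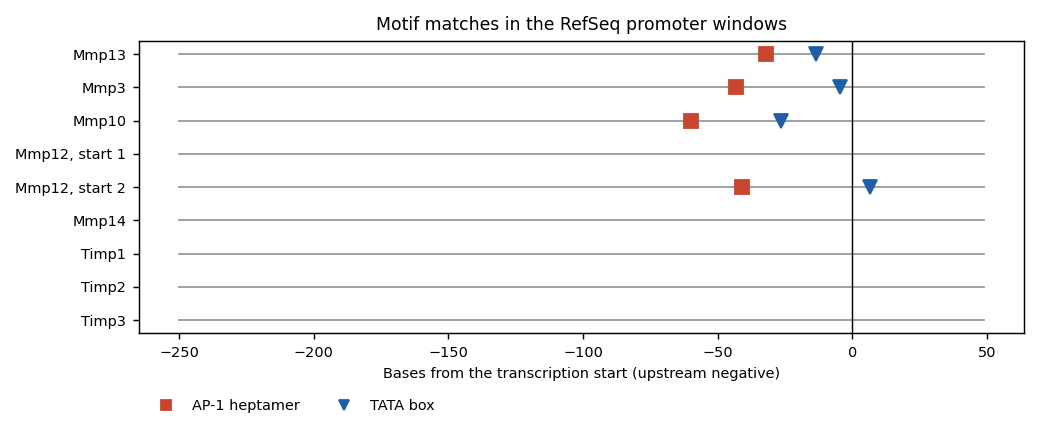
Positions of the AP-1 heptamer (squares) and the TATA box letters (triangles) in the 9 RefSeq promoter windows of 8 genes. The x axis is the distance from the transcription start in bases, upstream negative, and each grey line is 1 window. All 4 heptamers lie between 63 and 29 bases before a start, in the genes of the chromosome 9 group.

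The array medians lay between 5.64 and 5.80, and arrays of 1 group correlated at r = 0.972 to 0.994 over all probe sets. The D6 transcript (Ccbp2 on this array) was read by 3 probe sets, and in 1 of them all WT arrays, at 4.15 to 5.76, lay above all D6-deficient arrays, at 3.30 to 3.86. The other 2 overlapped. The hybridization controls split the arrays into a brighter set of 17 and a dimmer set of 13, and every group but D6-deficient day 6 held both. Within these sets, the brightest probe set of each gene gave the same sign as the pooled difference in 99 of 99 within-set values of results that passed. Only differences already called were compared, on as few as 1 array against 1, so a shared sign was likely beforehand and is no test of the sets. Skin cell markers were present as labeled, with Krt14, a basal keratinocyte keratin, at 12.7 to 14.4 and Col1a2, a fibroblast collagen, at 13.3 to 14.5 over the 30 arrays.

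The proteases Mmp13, Mmp9, Mmp3, Mmp10 and Mmp12 and 1 inhibitor rose to a peak on day 4 against acetone in both genotypes, while 2 inhibitors and Mmp2 were lowest then. The rising inhibitor was Timp1, and Timp3, Timp2 and Mmp2 fell in both genotypes on that day. Mmp14 did not pass in its brightest probe set. The largest rises were those of Timp1, 44.7-fold in WT and 44.9-fold in D6-deficient skin, and of the collagenase Mmp13, by 7.17 and 7.00 on the log2 scale. No fold is given for Mmp13, because its acetone arrays in WT skin read 3.61 to 4.06, near the lowest mean intensity that was tested. Counted as probe sets, 18 of 22 passed in WT skin (7 higher, 11 lower), against 39.1% of all probe sets tested, and 17 of 22 in D6-deficient skin (7 higher, 10 lower), against 41.1%. Changes of more than 3-fold were seen in 11 of the 22 in WT skin and in 8 of the 22 in D6-deficient skin, where 3.24% and 4.01% of all probe sets passed and changed as much. The median difference over the 22 probe sets was -0.41 in WT skin and -0.35 for the D6-deficient mice, beside 0.01 over all probe sets tested in each genotype. These medians and counts weight Timp2 and Timp3, which hold 6 and 4 of the 22 probe sets. By gene, with the brightest probe set of each, 6 were higher and 3 lower in each genotype.

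On the other days fewer members moved. In WT skin 10 of the 22 probe sets passed on day 1 (3 higher, 7 lower; 24% of all), 8 on day 2 (3 higher, 5 lower; 26.1% of all) and 9 on day 6 (3 higher, 6 lower; 22.1% of all). In D6-deficient skin 9 passed on day 1 (4 higher, 5 lower), against 36.3% of all probe sets, 15 on day 2 (10 higher, 5 lower), against 38.1%, and 6 on day 6 (2 higher, 4 lower), against 31.7%. The share on day 6 in D6-deficient skin, 27.3%, was below that of all probe sets. With the 3-fold limit as well, WT skin had 2 members on day 1, 2 on day 2 and 1 on day 6, where all probe sets gave 1.77%, 1.9% and 1.34%. D6-deficient skin had 0, 7 and 1 on these days, where all probe sets gave 2.49%, 3.27% and 2.13%. Levels of skeletal muscle markers were lower than in acetone-treated skin in every TPA group, with 5 of 5 passing each time, and the part of this in the differences from day 0 was not tested.

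**Figure D2:**
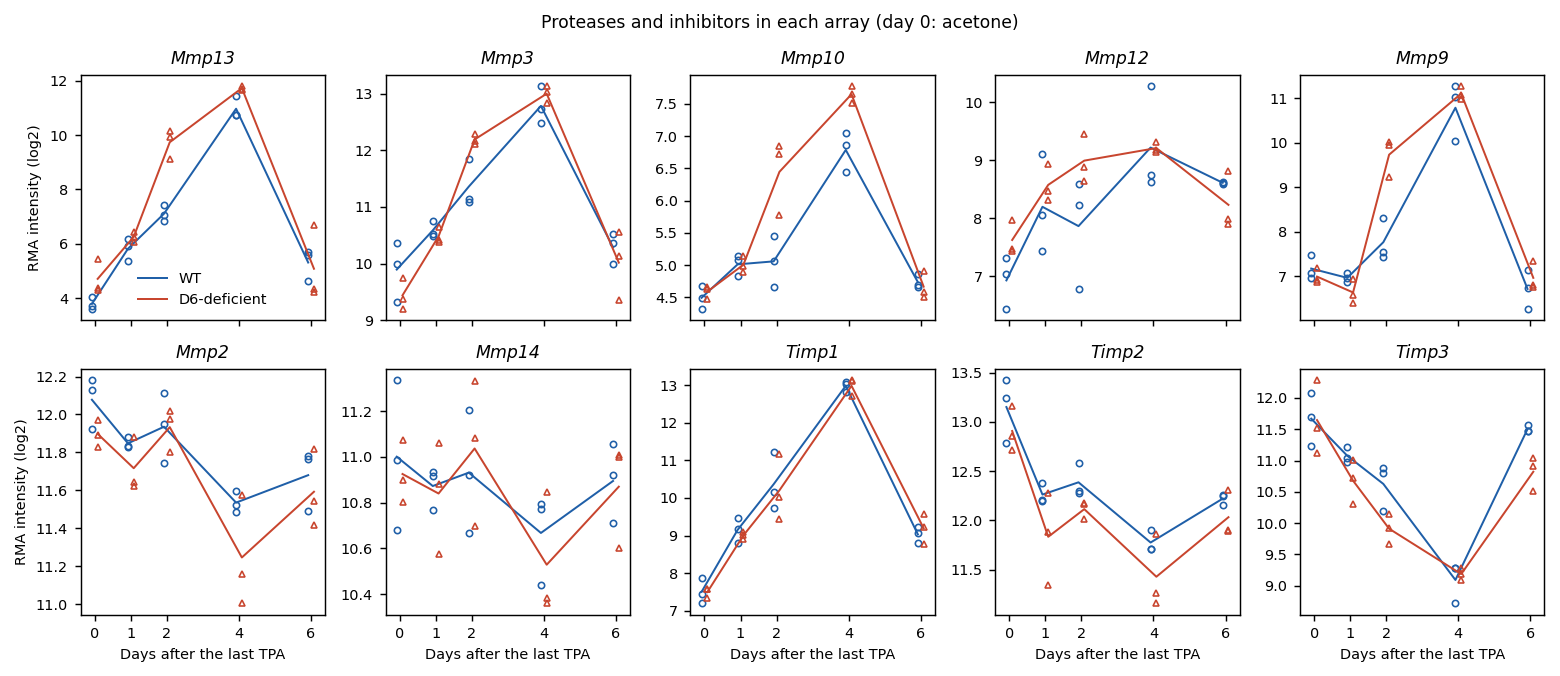
RMA intensity on the log2 scale (y axis, its own range in each panel) of the brightest probe set of each gene against days after TPA (x axis, day 0 being acetone). Circles are WT arrays, triangles D6-deficient arrays, 3 per group, and lines join the group means. Mmp13, Mmp3, Mmp10, Mmp9 and Timp1 peak on day 4 in both genotypes, Timp3 has its minimum there, and on day 2 the D6-deficient arrays of Mmp13, Mmp9 and Mmp10 lie above all WT arrays.

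Mmp13, the interstitial collagenase of rodents, started at the low end of the scale. In WT skin it read 3.73, 3.61 and 4.06 on day 0, 5.36, 6.19 and 5.92 on day 1, 6.83, 7.42 and 7.08 on day 2, 10.73, 10.73 and 11.44 on day 4, and 5.60, 4.63 and 5.72 on day 6. In D6-deficient skin it read 4.39, 4.31 and 5.45 on day 0, 6.27, 6.44 and 6.07 on day 1, 9.11, 10.15 and 9.94 on day 2, 11.67, 11.81 and 11.69 on day 4, and 4.34, 6.71 and 4.22 on day 6. All TPA arrays outside D6-deficient day 6 lay above the acetone arrays of their genotype, and on day 2 every D6-deficient array exceeded every WT array by more than 1.5 units. Against day 0, WT skin differed by 2.03 ± 0.45 (SE, n = 3 against 3) on day 1, 3.31 on day 2, 7.17 on day 4 and 1.52 on day 6, with adjusted p values of 0.0019, 7.7e-06, 3.6e-11 and 0.017. D6-deficient skin differed by 1.54 ± 0.45, 5.02, 7.00 and 0.37, with adjusted p values of 0.0090, 9.5e-09, 3.0e-11 and 0.57, so the day 6 difference did not pass. The WT day 6 call was lost in 4 of 6 fits that left out 1 array (adjusted p = 0.0519 to 0.0643). The acetone readings of WT skin were close to the lowest mean intensity that the filter kept, 3.72. Replicate 2 of D6-deficient day 6, at 6.71, and replicate 3 of D6-deficient day 0, at 5.45, were the high arrays of their groups, and the same arrays had the highest summed intensity of neutrophil markers there, 23069 against 7058 and 10288, and 15049 against 2667 and 4118. In other groups the order differed. On WT day 6 replicate 2 had the lowest Mmp13 and the highest marker sum, 9050. On D6-deficient day 2 replicate 1 had the lowest Mmp13 and the highest sum, 54566. On WT day 0 the highest Mmp13 array had a sum of 914 against 4572 in replicate 1. The brightest of the summed markers were S100a9 and S100a8, at means of 12.98 and 12.86, and the next was Csf3r at 8.58. The relation between Mmp13 and neutrophil content was not tested.

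The stromelysins, which cut proteoglycans, laminin and fibronectin and activate other MMPs, followed the same course at smaller amplitude. Mmp3 in WT skin read 9.33, 10.36 and 9.99 on day 0, 10.74, 10.49 and 10.53 on day 1, 11.09, 11.84 and 11.15 on day 2, 12.73, 12.48 and 13.14 on day 4, and 10.36, 9.99 and 10.52 on day 6. The D6-deficient arrays read 9.38, 9.20 and 9.75 on day 0, 10.42, 10.37 and 10.65 on day 1, 12.11, 12.17 and 12.29 on day 2, 13.13, 12.84 and 13.03 on day 4, and 10.13, 9.35 and 10.56 on day 6. The day 1 arrays lay above the acetone arrays in each genotype, and on day 2 the D6-deficient arrays lay between 12.11 and 12.29 while WT arrays reached 11.84 at most. Against day 0, Mmp3 rose by 1.47 ± 0.26 on day 2 and 2.89 on day 4 in WT skin (adjusted p = 0.00018 and 7.9e-09), and by 1.04 ± 0.26 on day 1, 2.75 on day 2 and 3.56 on day 4 in D6-deficient skin (adjusted p = 0.0030, 2.1e-08 and 2.1e-10). The day 1 difference of 0.69 in WT skin did not pass (adjusted p = 0.056), and neither day 6 difference did.

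Mmp10 in WT skin read 4.48, 4.32 and 4.68 on day 0, 5.13, 4.82 and 5.07 on day 1, 5.06, 5.45 and 4.66 on day 2, 6.86, 6.44 and 7.05 on day 4, and 4.66, 4.68 and 4.86 on day 6. In D6-deficient skin it read 4.66, 4.63 and 4.48 on day 0, 4.98, 5.13 and 4.89 on day 1, 5.77, 6.84 and 6.72 on day 2, 7.52, 7.78 and 7.65 on day 4, and 4.59, 4.91 and 4.50 on day 6. In WT skin the day 4 arrays lay above all others, whereas in D6-deficient skin the day 2 arrays, at 5.77 to 6.84, were already above all acetone, day 1 and day 6 arrays. Mmp10 rose by 2.29 ± 0.21 on day 4 in WT skin (adjusted p = 1.2e-08), and by 1.86 ± 0.21 on day 2 and 3.06 on day 4 in D6-deficient skin (adjusted p = 3.1e-07 and 9.7e-11). On day 2 the WT difference was 0.57 (adjusted p = 0.052).

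Mmp12, the elastase of macrophages, was the only rising protease whose step from day 4 to day 6 passed in neither genotype. In WT skin it read 7.04, 6.44 and 7.32 on day 0, 7.44, 9.10 and 8.05 on day 1, 8.22, 6.79 and 8.59 on day 2, 8.75, 10.28 and 8.63 on day 4, and 8.63, 8.60 and 8.61 on day 6. In D6-deficient skin it read 7.96, 7.48 and 7.44 on day 0, 8.93, 8.48 and 8.32 on day 1, 8.65, 9.45 and 8.89 on day 2, 9.14, 9.17 and 9.31 on day 4, and 7.99, 7.90 and 8.82 on day 6. Replicate 2 was the highest WT array on days 1 and 4 and the lowest on day 2, and the WT day 6 arrays were nearly equal. Mmp12 rose in WT skin on day 1 (1.27 ± 0.43, adjusted p = 0.034), day 4 (2.29, 0.00017) and day 6 (1.68, 0.0067), and in D6-deficient skin on day 2 (1.37, 0.014) and day 4 (1.58, 0.0046). Without WT day 1 replicate 2 the day 1 difference was 0.82 with an adjusted p of 0.206. The WT day 1 call was also lost without WT day 0 replicate 1 (adjusted p = 0.0668), WT day 0 replicate 2 (0.141) or WT day 1 replicate 3 (0.062). In the fit to the arrays of the contrast only it had an adjusted p of 0.0626. Without D6-deficient day 2 replicate 2 that day's difference was 1.14 with an adjusted p of 0.0766.

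Mmp9, the gelatinase of neutrophils and keratinocytes, was not higher on day 1 and rose late. In WT skin its brightest probe set read 7.08, 6.95 and 7.48 on day 0, 7.06, 6.96 and 6.86 on day 1, 7.44, 8.31 and 7.54 on day 2, 11.04, 10.05 and 11.29 on day 4, and 7.13, 6.25 and 6.74 on day 6. The D6-deficient arrays read 6.87, 7.18 and 6.92 on day 0, 6.58, 6.38 and 6.93 on day 1, 9.23, 9.94 and 10.03 on day 2, 10.99, 11.07 and 11.28 on day 4, and 6.79, 6.76 and 7.33 on day 6. On day 2 the lowest D6-deficient array, at 9.23, was above the highest WT array, at 8.31, and on day 4 the genotypes overlapped. Against day 0 the difference in WT skin was 0.59 ± 0.28 on day 2, which did not pass (adjusted p = 0.12), and 3.62 on day 4 (adjusted p = 8.9e-10). D6-deficient skin rose by 2.75 ± 0.28 on day 2 and 4.12 on day 4 (adjusted p = 6.3e-08 and 7.4e-11). The second Mmp9 probe set correlated with the first at r = 0.99 over the 30 arrays, as a description, and differed from it on day 1, where it fell by 0.70 in WT and 0.83 in D6-deficient skin (adjusted p = 0.045 and 0.012). Without the filter on dim probe sets the WT value had an adjusted p of 0.0516. The WT call was also lost with median centring (adjusted p = 0.0565) and with the hybridization control set as a covariate (0.065). Leaving out replicate 1 or 3 of WT day 0 or of WT day 1 gave it an adjusted p of 0.11 to 0.137. The D6-deficient call was lost without replicate 2 of day 0 (0.0704).

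The gelatinase Mmp2, a product of dermal fibroblasts, changed little and downward. Its brightest probe set lay between 11.92 and 12.18 in WT and between 11.83 and 11.97 in D6-deficient skin on day 0, and between 11.49 and 11.60 and between 11.00 and 11.57 on day 4, without overlap within a genotype. It fell by 0.54 ± 0.13 in WT and 0.65 ± 0.13 in D6-deficient skin on day 4 (adjusted p = 0.0021 and 0.00031) and by 0.40 in WT skin on day 6 (adjusted p = 0.033). The summed intensity of 6 fibroblast markers was 40985 to 48713 on day 4 against 45759 to 69338 on day 0 in WT skin, and 37134 to 39030 against 41160 to 58169 in D6-deficient skin, with 1 higher and 2 lower in each genotype, and the part of these cells in the fall of Mmp2 was not tested. Both Mmp2 probe sets gave the same calls against day 0 (r = 0.98), but the WT day 6 call was weak in each. In the brightest it was lost with median centring (adjusted p = 0.0519) and in the fit to the arrays of the contrast only (0.0825). Leaving out replicate 2 of WT day 6 gave 0.189 there and 0.262 in the other probe set. In that other probe set it was also lost without the filter (0.0554), with median centring (0.0681) and with the hybridization control set as a covariate (0.0525). For Mmp14 the 3 probe sets disagreed, with pairwise r of -0.14 to 0.48. Its brightest probe set stayed between 10.36 and 11.34 over all arrays and passed in none of the 8 comparisons with day 0. A dimmer one rose in D6-deficient skin on days 1, 2 and 6, by 0.86, 1.06 and 0.61, and another fell in WT skin on days 1, 2 and 4, by 0.43, 0.53 and 0.65, so no single direction can be given for Mmp14. The WT day 1 fall of -0.43 was lost in 5 of 6 fits that left out 1 array (adjusted p up to 0.209), without the filter (0.0557) and with median centring (0.0536). The D6-deficient day 6 rise was lost in 4 of 6 such fits (adjusted p up to 0.14) and with the hybridization control set as a covariate (0.079).

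Timp1, the inhibitor that binds Mmp9 and its zymogen, rose on every TPA day in both genotypes. In WT skin it read 7.45, 7.86 and 7.20 on day 0, 9.46, 8.81 and 9.19 on day 1, 10.15, 11.21 and 9.74 on day 2, 13.03, 12.83 and 13.09 on day 4, and 9.06, 9.24 and 8.80 on day 6. The D6-deficient arrays read 7.58, 7.34 and 7.57 on day 0, 9.02, 9.09 and 8.90 on day 1, 11.16, 9.44 and 10.02 on day 2, 12.71, 13.10 and 13.14 on day 4, and 9.24, 9.58 and 8.77 on day 6. Every TPA array lay above every acetone array, also on day 6, when all 6 arrays read 8.77 or more. The rises in WT skin were 1.65 ± 0.33 on day 1, 2.86 on day 2, 5.48 on day 4 and 1.53 on day 6, and in D6-deficient skin 1.51 ± 0.33, 2.71, 5.49 and 1.70, with adjusted p values between 1.1e-11 and 0.0017.

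Timp3 moved the opposite way. Its brightest probe set in WT skin read 12.08, 11.70 and 11.23 on day 0, 10.97, 11.21 and 11.04 on day 1, 10.81, 10.19 and 10.88 on day 2, 9.28, 9.28 and 8.72 on day 4, and 11.57, 11.47 and 11.47 on day 6. In D6-deficient skin it read 11.53, 12.29 and 11.12 on day 0, 10.30, 10.72 and 11.01 on day 1, 9.66, 10.14 and 9.93 on day 2, 9.19, 9.08 and 9.28 on day 4, and 10.92, 11.04 and 10.51 on day 6. The day 4 arrays, all at 9.28 or less, were below every acetone array by more than 1.5 units. Timp3 fell by 1.04 ± 0.25 on day 2 and by 2.58 on day 4 in WT skin (adjusted p = 0.0030 and 2.3e-08), which is 5.98-fold lower on day 4. It fell by 0.97 ± 0.25 on day 1, 1.74 on day 2, 2.46 on day 4 and 0.83 on day 6 in D6-deficient skin (adjusted p = 0.0038, 7.0e-06, 3.3e-08 and 0.014). All 4 Timp3 probe sets fell on day 4 in both genotypes, by 0.89 to 2.67, and they correlated at r = 0.80 to 0.98. On day 1 in WT skin the brightest probe set differed by -0.59 and did not pass, while the second-brightest fell by 0.69. That second call was lost without WT day 0 replicate 1 (difference -0.54, adjusted p = 0.181). It was also lost without WT day 0 replicate 3 or any 1 of the WT day 1 arrays (adjusted p = 0.0523 to 0.126). On day 2 only 2 of the 4 fell in WT skin and 3 of the 4 in D6-deficient skin. The D6-deficient falls on days 1 and 6 passed in the brightest probe set alone, and the mean of the 4 differed by -0.28 on day 1 (adjusted p = 0.345). The D6-deficient day 6 call did not hold without replicate 2 of day 0 (difference -0.50, adjusted p = 0.133) or replicate 3 of day 6 (-0.67, 0.0642), nor for the mean of the 4 probe sets (-0.25, 0.419). Differentiated keratinocyte markers were low at the same time as Timp3: 4 of 5 fell on day 4 in WT skin and 5 of 5 in D6-deficient skin, their summed intensity on day 4 being 2681 to 10346 and 754 to 3125 against 27413 to 30139 and 36003 to 38121 on day 0. The part of these cells in the fall of Timp3 was not tested.

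Timp2, a broadly expressed inhibitor that also takes part in pro-Mmp2 activation by Mmp14, fell from day 1 on in its brightest probe set, while its 6 probe sets did not all move together. The brightest lay between 12.71 and 13.43 in the acetone arrays, between 11.34 and 12.58 on days 1 and 2, between 11.16 and 11.90 on day 4 and between 11.89 and 12.31 on day 6, always below the acetone arrays of its genotype. It fell by 1.38 ± 0.20 in WT and 1.48 ± 0.20 in D6-deficient skin on day 4 (adjusted p = 6.5e-06 and 1.9e-06). Of the 6 probe sets, 4 fell on day 4 in both genotypes. The other 2 did not pass on that day, and 1 of them was near the lowest intensities of the array, with a mean of 3.77. Pairs of Timp2 probe sets correlated at r = 0.12 to 0.92. The probe sets went different ways on day 2 in D6-deficient skin, where 2 fell, 2 rose and 2 did not pass, and the mean over the 6 differed from day 0 by -0.14 (adjusted p = 0.35). The risers were the second-brightest, by 0.34 ± 0.11 (adjusted p = 0.022), which did not pass on day 4, and the fifth-brightest, by 0.60 ± 0.23 (adjusted p = 0.044), which fell on day 4. Each of these 2 calls was lost in 4 of 6 fits that left out 1 array.

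**Figure D3:**
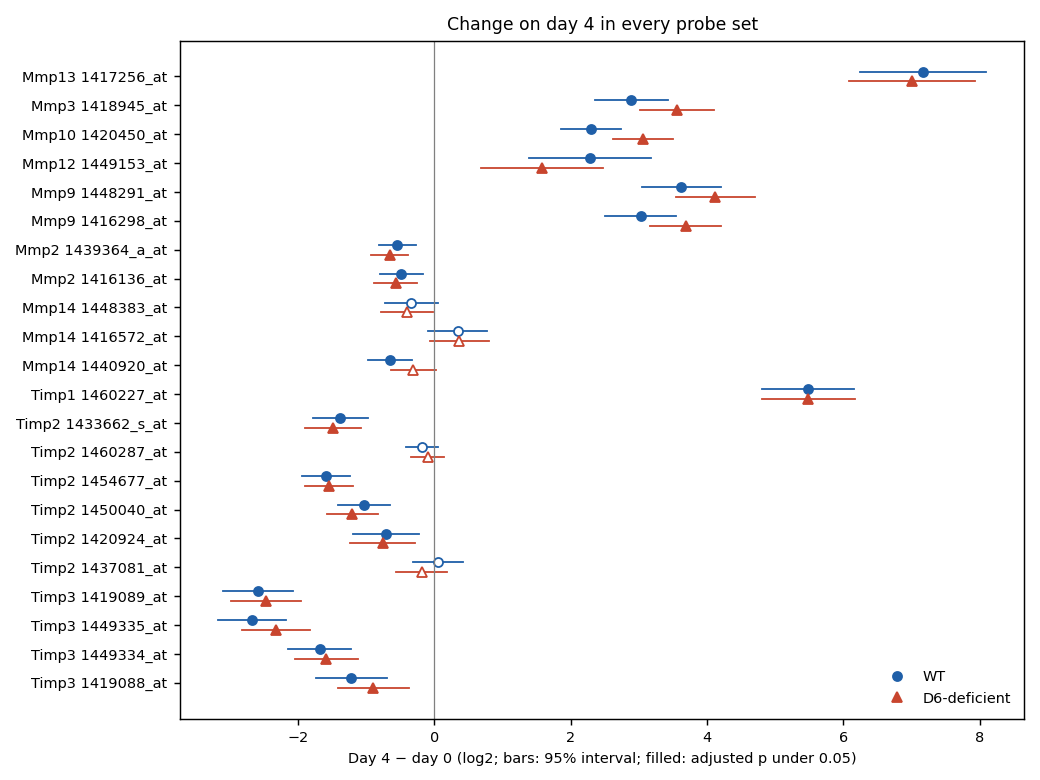
Difference between day 4 and day 0 on the log2 scale (x axis) for each of the 22 probe sets (y axis), WT as circles and D6-deficient as triangles, 3 arrays against 3, with 95% intervals of the linear model. Filled symbols have an adjusted p under 0.05. Mmp13 and Timp1 lie farthest to the right at 7.17 and 5.48 in WT skin, Timp3 farthest to the left, the 6 Timp2 probe sets between -1.59 and 0.06 in WT skin with 4 of them filled, and the Mmp14 probe sets lie on both sides of 0.

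The effect of the missing receptor was tested by setting D6-deficient against WT skin on each day. On day 2, Mmp9, Mmp13 and Mmp10 were higher in D6-deficient skin, by 3.92-, 6.17- and 2.62-fold, and no probe set of an inhibitor passed. Of the 22 probe sets 4 passed on day 2, all higher, against 4.45% of all probe sets tested. On days 0, 1, 4 and 6 none of the 22 passed, where 1.57%, 0.0555%, 0.513% and 0.125% of all probe sets did. At an unadjusted p under 0.05 there were 3, 1, 7 and 4 members on these days. The methods' t-test with Benjamini-Hochberg adjustment gave 0 on each. It also gave 0 on day 2, so it cannot decide whether a difference was absent. On day 4 the lowest adjusted p of the 22 in the linear model was 0.0646. Mmp10 (7.52 to 7.78 against 6.44 to 7.05 in WT skin) and Mmp13 (11.67 to 11.81 against 10.73 to 11.44) did not overlap on that day. The brightest probe sets of the other genes did. The median difference over the 22 probe sets on day 2 was -0.01, beside -0.02 over all probe sets.

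On day 2, Mmp9 differed by 1.97 ± 0.28 (95% interval 1.39 to 2.55, adjusted p = 7.4e-05) in its brightest probe set and by 1.98 ± 0.25 (adjusted p = 1.5e-05) in the other. Mmp13 differed by 2.63 ± 0.45 (1.70 to 3.55, adjusted p = 0.00062). Mmp10 differed by 1.39 ± 0.21 (0.95 to 1.83, adjusted p = 0.00018). In all 3 genes the D6-deficient arrays lay above all WT arrays, and the calls held without any 1 of the 6 arrays. Mmp3 and Mmp12 were also without overlap, at 0.83 ± 0.26 and 1.13 ± 0.43, but did not pass (adjusted p = 0.073 and 0.16). Timp1 differed by -0.16 with an interval of -0.84 to 0.51, Timp2 by -0.27 (-0.68 to 0.14), Timp3 by -0.72 (-1.23 to -0.20, adjusted p = 0.12), Mmp2 by less than 0.01 (-0.28 to 0.27) and Mmp14 by 0.11 (-0.28 to 0.49). With the methods' t-test after Benjamini-Hochberg adjustment none of the members passed on day 2, and the adjusted p values of the brightest probe sets of Mmp9, Mmp13 and Mmp10 were 0.174, 0.132 and 0.277.

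**Figure D4:**
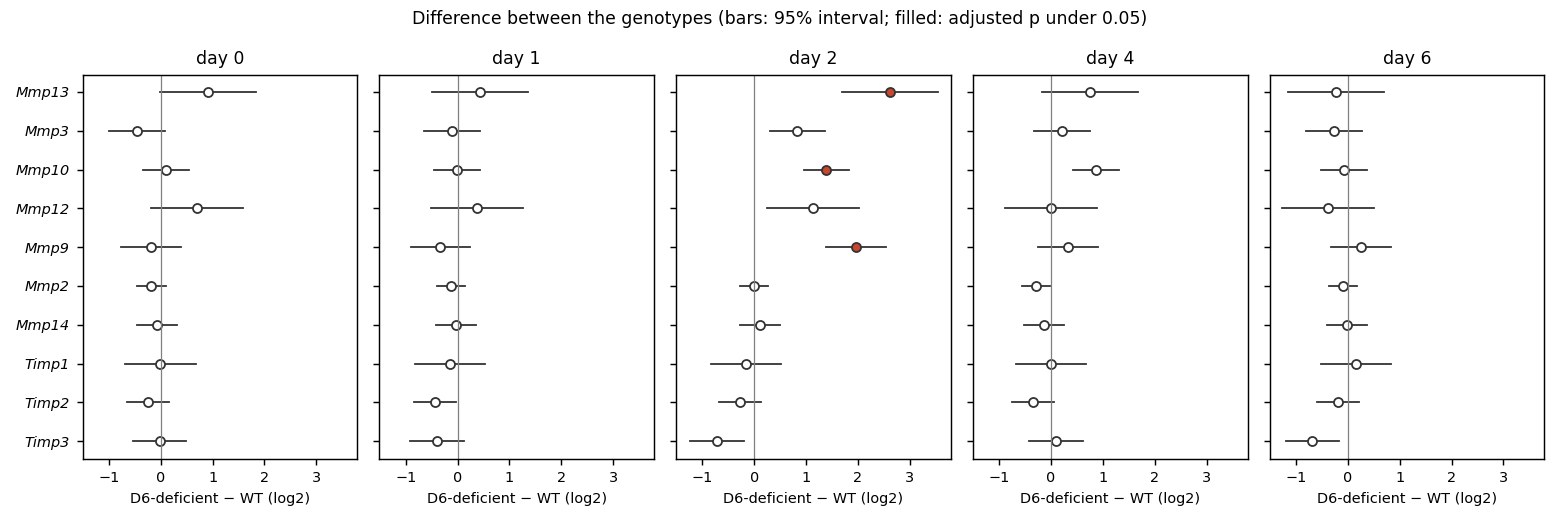
Difference between D6-deficient and WT skin on the log2 scale (x axis) for the brightest probe set of each gene (y axis) on days 0, 1, 2, 4 and 6, one panel per day, 3 arrays against 3. Bars are 95% intervals of the linear model and filled points have an adjusted p under 0.05. The filled points are Mmp13, Mmp10 and Mmp9 on day 2, at 2.63, 1.39 and 1.97.

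The change from day 0 was also compared between the genotypes. On day 2, 5 of 22 probe sets passed, all with the larger change in D6-deficient skin, against 5.4% of all probe sets. They were both Mmp9 probe sets (2.15 ± 0.40, adjusted p = 0.0016, and 2.16 ± 0.36, 0.00064), Mmp10 (1.29 ± 0.30, 0.010), Mmp3 (1.29 ± 0.37, 0.040) and the second-brightest Timp2 probe set (0.55 ± 0.16, 0.044). That Timp2 probe set averaged 12.43 in WT and 12.04 in D6-deficient acetone skin, and 12.22 and 12.38 on day 2. Mmp3 averaged 9.89 and 9.44 in acetone skin, and 11.36 and 12.19 on day 2. Part of both differences in change thus lay in the acetone groups, where neither genotype difference passed. For Mmp13 the difference in change was 1.71 ± 0.63 and did not pass (adjusted p = 0.13), and its acetone levels differed by 0.92 ± 0.45 between the genotypes, which did not pass either (adjusted p = 0.35) and drew on the high array of D6-deficient day 0, replicate 3, at 5.45. For Timp1 it was -0.16 with an interval of -1.11 to 0.80. On days 1, 4 and 6 no member passed, where 0.0194%, 0.608% and 0.025% of all probe sets did, and at an unadjusted p under 0.05 there was 1 member on each of these days. The Mmp3 call was lost in 9 of the 12 fits that left out 1 array, with an adjusted p of 0.129 without WT day 0 replicate 2, and the Timp2 call was lost in 8 of the 12 (adjusted p up to 0.133), without the filter on low values (0.0503), with median centring (0.0567) and in the fit to the 12 arrays alone (0.0561). In that fit Mmp10 had an adjusted p of 0.0544 and Mmp3 one of 0.0556.

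Cell markers also differed between the genotypes on day 2. Of 9 neutrophil markers 7 were on the array, and 5 of these were higher in D6-deficient skin on day 2, namely the granule protein genes Ngp (4.82), Ltf (3.82) and Camp (3.28) and the receptors Csf3r (1.71) and Cxcr2 (0.84), while S100a8 and S100a9, which keratinocytes also make, differed by 0.10 each and did not pass. The summed intensity of the 7 was 38174 to 51441 in WT and 49400 to 54566 in D6-deficient skin on day 2. The dimmest of the 7, Ltf, ranged from 3.79 to 9.87 over the arrays. Of the 9 macrophage markers 2 were higher on day 2, and their summed intensity was 25992 to 28956 in WT and 34329 to 36202 in D6-deficient skin. On day 0 that sum was lower in D6-deficient skin, 17316 to 22475 against 26172 to 29900. Other marker sums also differed without overlap on day 2. Differentiated keratinocyte markers summed to 41907 to 51833 in WT and 28376 to 33787 in D6-deficient skin (1 of 5 lower), skeletal muscle markers to 37702 to 42082 and 27838 to 30397 (1 of 5 lower), and endothelial markers to 2042 to 2449 and 2502 to 3505 (0 of 5 passed). Sums also separated the genotypes on days when no member passed. On day 0 differentiated keratinocyte markers summed to 27413 to 30139 in WT and 36003 to 38121 in D6-deficient skin. Basal keratinocyte markers summed to 13491 to 13925 and 19741 to 23254 on that day, and endothelial markers to 2777 to 3343 and 2453 to 2726. On day 4 macrophage markers summed to 29127 to 35744 and 23834 to 26145, and basal keratinocyte markers to 21015 to 23281 and 13664 to 18745. Fibroblast markers summed to 40985 to 48713 and 37134 to 39030 on that day, and adipocyte markers to 35744 to 42640 and 43877 to 53714. Skeletal muscle markers summed to 35576 to 50877 and 25352 to 31363 on day 1, and to 38560 to 50715 and 20665 to 33648 on day 6. Fibroblast sums were also higher in WT skin without overlap on days 1 and 6, on day 1 by a very small margin. The part of all these cells in the protease differences was not tested.

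The steps between neighboring days were tested within each genotype, and the steps were not tested between the genotypes. From day 1 to day 2, 0 of 22 probe sets passed in WT skin (7 at an unadjusted p under 0.05), where 1.2% of all did, and 10 of 22 in D6-deficient skin (6 higher, 4 lower), where 10.4% of all did. The D6-deficient steps were 3.48 for Mmp13, 3.10 for Mmp9, 1.71 for Mmp3, 1.44 for Mmp10 and 1.20 for Timp1, and all 4 Timp3 probe sets fell. The WT steps were 1.29, 0.80, 0.77, 0.05 and 1.22 for the same 5 genes, and none passed. For Timp1 the steps were of like size, 1.22 in WT and 1.20 in D6-deficient skin. Its passing in D6-deficient skin alone therefore does not set the genotypes apart. From day 2 to day 4, 16 of 22 passed in WT skin (14.5% of all) and 17 of 22 in D6-deficient skin (16.3% of all), Mmp9 rising by 3.03 and 1.38, and Mmp13 by 3.86 and 1.99. From day 4 to day 6, 11 passed in WT skin (22.1% of all) and 14 in D6-deficient skin (31.4% of all). In that step Mmp13 fell by 5.65 in WT and 6.63 in D6-deficient skin, Mmp9 fell by 4.08 and 4.15, Timp1 fell by 3.95 and 3.79, and Timp3 rose by 2.41 and 1.64. The order of the days in a gene is therefore resolved at day 4, which lay above its neighbors for Mmp13, Mmp9, Mmp3, Mmp10 and Timp1 in both genotypes, whereas the step from day 1 to day 2 in WT skin passed for none of them.

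Across the 30 arrays the rising genes tracked each other, as a description of arrays that share time, genotype and cell content. Pearson's r was 0.96 between Mmp10 and Mmp13, 0.95 between Mmp9 and Mmp10, 0.93 between Mmp3 and Mmp13 and 0.91 between Timp1 and each of Mmp3 and Mmp13, and it was -0.91 between Timp1 and Timp3. Mmp12 was less tied to the group, with r of 0.52 to 0.67 to the other rising MMPs. The genes outside the family whose pattern was most like a member's, by Pearson's r over the 30 arrays, were Upp1, Hdc and Ifitm1 for Mmp13 (0.98 to 0.97), Cd300lf, Trem3 and AB124611 for Mmp9 (0.98 each), Trem3, 1810033B17Rik and Cd177 for Mmp10 (0.98 to 0.97), and Pglyrp1, Snx20 and Samsn1 for Mmp3 (0.97 to 0.96). For Timp1 they were Cyp7b1, Tgfa and Ltb4r1 (0.97 to 0.96), for Timp3 Lrig1, Irs1 and Cilp (0.95 to 0.93), for Timp2 they included Tshz1 and Cd55 (0.92 and 0.91) and for Mmp2 Islr, Pamr1 and Angptl2 (0.92 to 0.89). Mmp12 was most like Ccl1, Itgax and Csf2 (0.82 to 0.78). The highest r for the brightest Mmp14 probe set was 0.72, with Fam123b.

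The rest of the MMP family and the genes around it were read from lists, 1 brightest probe set per gene. Of 17 other MMPs and Timp4, 13 were on the array and 10 were tested. On day 4, 2 were higher and 5 lower in WT skin, and 2 higher and 3 lower in D6-deficient skin, beside 39.1% and 41.1% of all probe sets. The risers were the neutrophil collagenase Mmp8 (5.04 ± 0.39 in WT skin and 5.55 in the other genotype) and Mmp19 (1.83 ± 0.16 and 2.42), and Timp4 fell in WT skin by 1.94 ± 0.48, its D6-deficient difference being -0.32 (adjusted p = 0.63). On day 2, Mmp8 alone of the 10 passed between the genotypes, the D6-deficient level exceeding the WT level by 3.13 ± 0.39 (adjusted p = 1.1e-05), also relative to day 0 (3.24 ± 0.55, adjusted p = 0.00085). The median over the 10 genes on day 2 between the genotypes was 0.05.

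Of 18 activators and regulators, 17 were tested, and on day 4 in each genotype 6 were higher and 2 lower, 8 of 17 in all and near the 39.1% and 41.1% of all probe sets. The kallikrein Klk6 rose by 6.39 in WT and 4.78 in D6-deficient skin, the protease Prss22 by 3.64 and 3.17 and the urokinase receptor Plaur by 2.41 and 2.56. Reck, a membrane inhibitor of MMPs, fell on all TPA days in both genotypes, by 1.21 ± 0.16, 1.48, 1.83 and 1.19 in WT skin and by 0.63 to 1.1 in D6-deficient skin, and it was lower in D6-deficient than in WT acetone skin (-0.66 ± 0.16, adjusted p = 0.030). Between the genotypes on day 2, Plaur (1.59 ± 0.17, adjusted p = 1.5e-06) and the neutrophil protease Ctsg (1.19 ± 0.34, adjusted p = 0.046) were higher in D6-deficient skin and the other 15 did not pass. The median over the 17 was 0.11.

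Of 12 ADAM and ADAMTS proteases, several of which Timp3 inhibits, 6 were higher and 1 lower on day 4 in WT skin, and 7 higher and 1 lower in D6-deficient skin, where 39.1% and 41.1% of all probe sets passed. Adamts4, an aggrecanase, rose by 2.50 and 2.51 and the leukocyte protease Adam8 by 2.41 and 2.40. None of the 12 passed between the genotypes on day 2, with a median of 0.20. Of 16 matrix substrates, 4 were higher and 5 lower on day 4 in WT skin and 5 higher and 8 lower in D6-deficient skin, to be read against the same 39.1% and 41.1%. Tenascin C (Tnc), a matrix protein of healing skin, rose by 6.03 and 5.50, while the type I collagen chain Col1a1 fell by 1.02 and 1.52. On day 2 the substrates higher in D6-deficient skin included the laminin chain Lama3 (0.96 ± 0.26, adjusted p = 0.033), and the median over the 16 was 0.26.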

How the data were processed

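RNA from whole back skin of 30 mice was hybridized to 1-color Affymetrix Mouse Genome 430 2.0 arrays. The authors normalized the arrays by RMA and deposited linear intensity values, whose log2 was taken here without further scaling. RMA compresses differences at low intensity. The other deposited file is a sample sheet and was not used for values. The 64 control probe sets and the 20% of probe sets with the lowest mean (9008) were left out. A mean for each of the 10 groups was fitted with limma 3.58.1 (R 4.3.3, lmFit and eBayes), with Benjamini-Hochberg adjustment over 36029 probe sets for each of 23 contrasts. The authors' baseline transformation and unpaired t-test (p under 0.05, over 3-fold) was an alternative, as were no filter, median centring, arrays of the contrast only, a replicate block, the hybridization control set, gene means and leaving out each array. Named are all member probe sets, up to 4 genes of a list per comparison (largest difference among those passing) and 3 like genes per member; some of these genes are not reported here. The model was tested on simulated data. The members and lists were chosen with earlier results of these data known. Promoters and gene positions are from RefSeq. The number of arrays limits the precision.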

Additional observations from a re-analysis of the deposited data

Results flagged for a closer look

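The change from day 0 to day 2 differed between D6-deficient and WT skin, by the test of the difference itself, in 5 probe sets (limma, 3 arrays in each of 4 groups, adjusted over 36029 probe sets). The differences in change on the log2 scale were 2.15 and 2.16 for the probe sets of Mmp9, 1.29 for Mmp10, 1.29 for Mmp3 and 0.55 for the second-brightest Timp2 probe set, each with the larger value in D6-deficient skin. The other 5 Timp2 probe sets did not pass in the same comparison. Part of the Mmp3 and Timp2 values lay in the acetone groups, where the D6-deficient means were lower without passing. They were 9.44 against 9.89 for Mmp3 and 12.04 against 12.43 for the second-brightest Timp2 probe set.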

How the results depend on the processing

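No difference changed sign under any alternative, for the 101 differences with an adjusted p under 0.05 in the comparisons with day 0, between the genotypes and relative to day 0. Of these 101, 5 were no longer past the threshold without the filter, 5 with median centring, 4 with the hybridization control set, 2 with the replicate block, 14 in fits to the arrays of the contrast only and 49 by the methods' t-test with Benjamini-Hochberg adjustment. Of 22 differences of genes with several probe sets, 3 were no longer past it for the mean of the probe sets, namely Timp3 on D6-deficient days 1 and 6 and Timp2 on D6-deficient day 2. Leaving out 1 array gave 636 values, of which 81 were no longer past it.

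Counts of the 22 probe sets moved by over 1.5 times in these cases. With the methods' t-test at an unadjusted p under 0.05 and over 3-fold, WT skin had 2, 2, 11 and 1 on days 1, 2, 4 and 6 against 10, 8, 18 and 9, D6-deficient skin had 0, 7, 8 and 1 against 9, 15, 17 and 6, and day 2 relative to day 0 had 3 against 5. The linear model with the same 3-fold limit gave the same counts against day 0, so these moves come with the limit. With that test after Benjamini-Hochberg adjustment WT skin had 2, 3 and 0 on days 1, 2 and 6, D6-deficient skin had 5 and 0 on days 1 and 6, and day 2 had 0 between the genotypes and 1 relative to day 0. With the arrays of the contrast only, D6-deficient day 6 had 2 and day 2 relative to day 0 had 3. Leaving out 1 array gave 5 to 8 on WT day 1 (5 without WT day 0 replicate 1 and 6 without WT day 1 replicate 3), 5 to 8 on WT day 6 (5 without WT day 0 replicate 2) and 3 to 4 on day 2 relative to day 0. The 3 came without WT day 2 replicate 1, WT day 0 replicate 2, D6-deficient day 0 replicate 1 or D6-deficient day 2 replicates 2 or 3. Gene means moved no count of genes by over 1.5 times.

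Replicate numbers did not pair the arrays (correlations of same-numbered deviations -0.35 to 0.48, and 12 of 30 arrays closest to their own number). With the replicate block 9 probe sets passed on WT day 2 in place of 8, and 4 on day 2 relative to day 0 in place of 5, while the other counts were equal. The 2 calls lost with it were the Mmp14 fall on WT day 1 (adjusted p = 0.0516) and the second-brightest Timp2 probe set on day 2 relative to day 0 (0.0562).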
